A study of Mus musculus with 6 samples.

Results

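The serine synthesis and one-carbon enzymes were followed as 9 genes, taken from the table by symbol: Phgdh, Psat1 and Psph of serine synthesis, Shmt1 and Mthfd1 of the cytosolic folate arm, and Shmt2, Mthfd2, Mthfd1l and Aldh1l2 of the mitochondrial folate arm. All 9 were among the 26469 rows of the count table and passed the filter on low counts. The samples were 6 cultures of splenic CD4+ T cells from mice carrying the conditional allele Sf3b1K700E/fl, which encodes the K700E form of the splicing factor SF3B1 once recombined. In 3 samples, called control, the mice had no Cd4Cre and are annotated WT. In the other 3, called mutant, Cd4Cre, a recombinase driven by the Cd4 promoter and so active in the T cell lineage, was present. Naive cells of both groups were cultured for 36 h with TGFβ (5 ng/ml), antibodies to CD3 and CD28 that stimulate the T cell receptor, and antibodies to IL-4 and IFNγ, a mixture used to make regulatory T cells. The sources used here do not state strain, age or whether each sample is a separate animal. P-values therefore reflect the spread between the samples alone, and some of that spread may be technical.

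Serine is made from a glycolytic intermediate in the cytosol by PHGDH, PSAT1 and PSPH, acting in that order. Serine hydroxymethyltransferases then pass a carbon unit of serine to folate, SHMT1 in the cytosol and SHMT2 in mitochondria. In mitochondria MTHFD2 oxidises the folate-bound unit and MTHFD1L releases it as formate, which MTHFD1 recaptures in the cytosol for purine and thymidylate synthesis, while ALDH1L2 burns the unit to CO2 and yields NADPH. Activated T cells are known to induce the mitochondrial enzymes as they prepare to divide, and the transcription factor ATF4 is a known inducer of many genes of this group.

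Total counts per library ran from 33633196 to 43928723. The gene Sf3b1 was at 593 to 712 CPM (counts scaled to library size) over the 6 libraries, and counts per gene do not show the allele. CD4+ T cell markers summed to 1705 to 2386 CPM in control and 1879 to 3016 CPM in mutant libraries, with all 8 of 8 detected. B cell markers (5 of 5 tested) summed to 1.92 to 4.91 CPM in control libraries, against 3.67 to 40.2 CPM in mutant libraries, highest in mutant 2; Ms4a1 was at 0 in mutant 1. CD8 markers (2 of 2 tested) summed to 5.81 to 40.4 and 6.56 to 17.3 CPM, myeloid markers (3 of 6 tested) to 1.67 to 2.78 and 2.18 to 2.47 CPM, and NK cell markers (2 of 4 tested) to 1.77 to 6.04 and 1.68 to 9.71 CPM. Dendritic cell markers (3 of 3 found) summed to 9.78 to 12.8 and 6.36 to 22.3 CPM, most of it Zbtb46, and 1 of 5 erythroid markers passed the filter, at under 1 CPM in every library. Mutant 1 stood apart: its mean level of 12 activation genes differed from the control mean by -0.91 and that of 10 naive-state genes by 1.12 (log2 CPM), while the other 5 libraries lay between -0.10 and 0.17 for activation and between -0.39 and 0.15 for the naive state. The part of these differences in the results below was not tested. Fold changes of the enzymes, arm scores and pathway lists are given with and without mutant 1. For single genes of those lists, the fit without it gave the same direction for every gene named below except Sesn2 and Ddit4.

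All 9 enzymes had a lower mean level in mutant than in control libraries, as did 47.1% of all 18323 genes tested. The median log2 fold change of the enzymes was -0.64, against 0.024 over all genes tested. None passed edgeR's quasi-likelihood test, with adjusted p-values of 0.601 for Psat1 to 0.830 for Mthfd1, in a comparison where 0% of all genes tested passed. In bulk RNA, fewer cells of a type and less RNA per cell cannot be told apart. At an unadjusted p under 0.05, 5 of the 9 (Phgdh, Psat1, Psph, Shmt2 and Mthfd1l) were lower, where 3.48% of all genes were. In Phgdh, Psat1, Shmt2 and Mthfd1l every mutant library was below every control library, which held for 7.48% of all genes tested. By DESeq2, which called 0.633% of the genes it tested, none of the 9 passed (adjusted p from 0.108 for Psat1 to 0.903 for Mthfd1). Without mutant 1 the same 4 genes had no overlap, where 12% of all genes were lower without overlap. In that fit 4 of the 9 were lower at an unadjusted p under 0.05 (3.95% of all genes) and the median of the 9 was -0.38. The count rested on other libraries too: without control 2, or without mutant 2, it was 7, with Psph, Mthfd2 and Aldh1l2 added, and without mutant 3 it was 6, with Shmt1 and Mthfd1 added. The share of all genes without overlap rose as well when these libraries were left out, to 14.4% without control 2, 11.4% without mutant 2 and 16.3% without mutant 3. The count was 4 without control 1 or without control 3, where the shares were 10.3% and 8.28%.

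**Figure D1:**
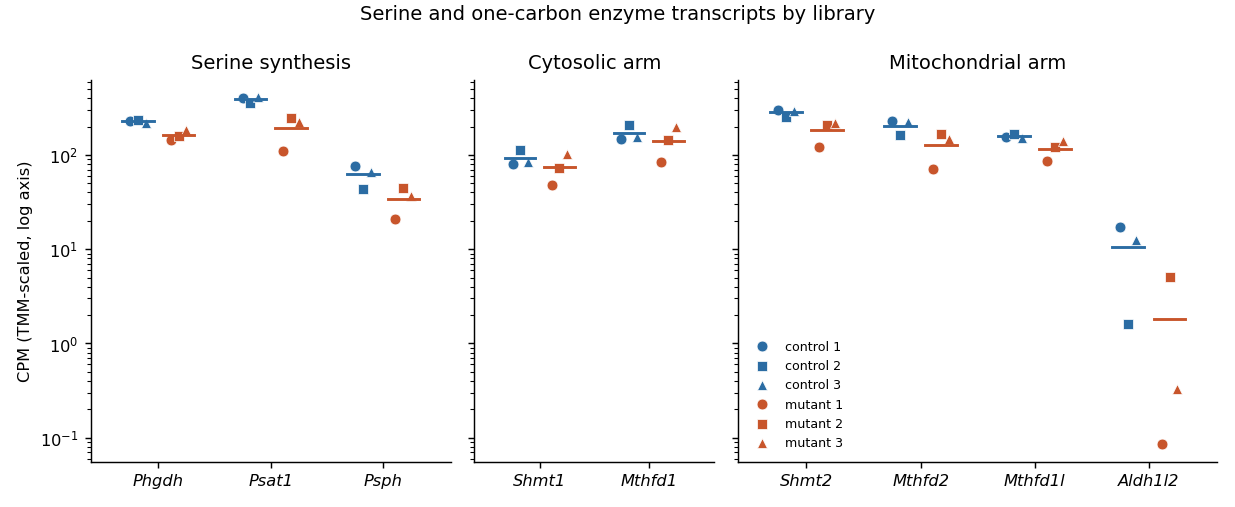
TMM-scaled CPM (log axis) of the 9 enzyme genes in each library, control in blue and mutant in orange, with symbols for the replicate and bars for group means. Mutant 1 is the lowest library for all 9 genes, and Aldh1l2 runs from 0.0848 to 17.2 CPM.

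Promoter sequence was read for these enzymes, whose means were all lower in mutant libraries, from RefSeq windows of 250 bases before to 50 after the annotated start on GRCm38.p6, which is not the build of the counts. A window was matched for 8 of the 9 genes, with a second for Psat1. The ATF4 composite element TGATGNAA and the E-box CACGTG, each searched on both strands, were found in 0 of these 9 windows, and in 3.97% and 7.15% of all 32851 windows of the same length. CCAAT, on either strand, was found in 6 of the 9 windows, against 37.4% of all windows, and the GC box GGGCGG in 5 of the 9, against 35.7%. Matches describe letters in these windows and nothing about binding. A gene of each role is shown with these last 2 motifs in capitals on either strand: Psat1 (chr19:15925010-15925309, minus strand), Mthfd2 (chr6:83317555-83317854, minus strand) and Shmt1 (chr11:60811216-60811515, minus strand).
Psat1: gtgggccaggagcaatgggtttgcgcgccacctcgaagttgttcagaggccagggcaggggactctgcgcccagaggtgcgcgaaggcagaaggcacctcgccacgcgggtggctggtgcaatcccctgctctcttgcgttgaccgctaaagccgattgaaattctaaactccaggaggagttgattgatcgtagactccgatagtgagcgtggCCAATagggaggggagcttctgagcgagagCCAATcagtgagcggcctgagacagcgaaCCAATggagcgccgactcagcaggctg
Mthfd2: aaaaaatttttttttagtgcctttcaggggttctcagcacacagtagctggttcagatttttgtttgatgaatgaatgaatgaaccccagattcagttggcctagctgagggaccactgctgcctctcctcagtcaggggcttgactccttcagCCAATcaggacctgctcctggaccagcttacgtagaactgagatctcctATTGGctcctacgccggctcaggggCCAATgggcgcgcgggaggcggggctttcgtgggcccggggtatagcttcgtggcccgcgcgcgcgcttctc
Shmt1: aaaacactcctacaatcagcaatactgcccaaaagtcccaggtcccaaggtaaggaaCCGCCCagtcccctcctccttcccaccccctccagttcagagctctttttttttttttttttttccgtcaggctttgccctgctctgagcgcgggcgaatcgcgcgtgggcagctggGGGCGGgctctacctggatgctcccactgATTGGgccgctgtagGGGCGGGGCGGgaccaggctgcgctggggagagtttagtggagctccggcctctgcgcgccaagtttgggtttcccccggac

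Of the windows printed, those of Psat1 and Mthfd2 each hold 3 CCAAT matches and no GC box, while that of Shmt1 holds 4 GC boxes, of which the last 2 overlap by 1 base, and 1 CCAAT match. The second window of Psat1 holds 2 GC boxes and no CCAAT. Among the other enzymes, Psph has 2 CCAAT matches and 3 GC boxes, Phgdh 2 CCAAT matches, Mthfd1 1 of each and Mthfd1l 1 GC box, and Shmt2 has neither motif.

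Of the serine synthesis genes, Phgdh, the entry enzyme, was at 228, 236 and 216 CPM in control 1, 2 and 3 and at 146, 160 and 184 CPM in mutant 1, 2 and 3. Every mutant value lay below the controls, which were close together. The mean was 227 ± 9.94 CPM in control and 163 ± 19.4 CPM in mutant libraries (SD, n = 3), a log2 fold change of -0.47 ± 0.14 (SE; 95% interval -0.79 to -0.15), and -0.38 without mutant 1.

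Psat1, the aminotransferase of the second step, had the largest difference of the 3. It was at 398, 360 and 409 CPM in the controls, against 109, 249 and 225 CPM in the mutants. Mutant minus control, the log2 fold change was -0.999 ± 0.29 (SE; 95% interval -1.66 to -0.34), and -0.70 without mutant 1. The groups did not overlap, and mutant 1 was well below the other mutant libraries.

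Psph, the phosphatase that releases serine, was at 76.7, 43.1 and 66.6 CPM in the controls, against 20.8, 44.6 and 36.9 CPM in the mutants. Mutant 2 lay just above control 2, so the groups overlapped. This gave a log2 fold change of -0.87 ± 0.31 (SE; 95% interval -1.59 to -0.14), and -0.60 without mutant 1. The count of Psat1 relative to Phgdh was 1.74, 1.53 and 1.89 in control and 0.749, 1.56 and 1.22 in mutant libraries, and thus overlapped between the groups. A pseudogene copy, Phgdh-ps1, held at most 12.9 estimated counts in any library, against 5163 or more for Phgdh.

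In the cytosolic arm, Shmt1, which splits serine into glycine and a folate-bound unit, was at 81.1, 113 and 84.8 CPM in the controls, against 47.7, 71.9 and 102 CPM in the mutants. Mutant 3 lay above control 1 and control 3. The log2 fold change was -0.33 ± 0.28 (SE; 95% interval -0.97 to 0.31), and -0.079 without mutant 1.

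Mthfd1, the trifunctional cytosolic enzyme that charges folate with formate, was at 146, 208 and 154 CPM in the controls, against 85.2, 143 and 197 CPM in the mutants. It followed the same order as Shmt1 over the 6 libraries, with control 2 and mutant 3 highest. Its log2 fold change was -0.26 ± 0.29 (SE; 95% interval -0.94 to 0.42). Without mutant 1 it was 0.018, in the opposite direction, so its lower mutant mean rests on that library.

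In the mitochondrial arm, Shmt2 was at 303, 256 and 294 CPM in the controls, against 121, 208 and 217 CPM in the mutants. The groups did not overlap, with a log2 fold change of -0.64 ± 0.23 (SE; 95% interval -1.17 to -0.12), and -0.40 without mutant 1.

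Mthfd2, the dehydrogenase and cyclohydrolase known for its induction in dividing cells, was at 228, 161 and 225 CPM in the controls, against 70.6, 165 and 150 CPM in the mutants. Control 2 lay below mutant 2, so the groups overlapped. The difference on the log2 scale was -0.67 ± 0.31 (SE; 95% interval -1.39 to 0.046), and -0.37 without mutant 1.

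Mthfd1l, the formate-releasing synthetase, was at 156, 167 and 153 CPM in the controls, against 86.7, 122 and 139 CPM in the mutants, without overlap. On the log2 scale it differed by -0.45 ± 0.19 (SE; 95% interval -0.88 to -0.022), and -0.27 without mutant 1.

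Aldh1l2 was the least abundant of the 9 and varied most between libraries of a group. It was at 17.2, 1.62 and 12.5 CPM in the controls, against 0.0848, 5.01 and 0.326 CPM in the mutants, the lowest value resting on 3 counts and the next on 12. Control 2 lay below mutant 2. The fitted log2 fold change was -2.53 ± 1.30 (SE; 95% interval -5.53 to 0.48), and it ran from -5.61 without mutant 2 to -1.96 without mutant 1.

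**Figure D2:**
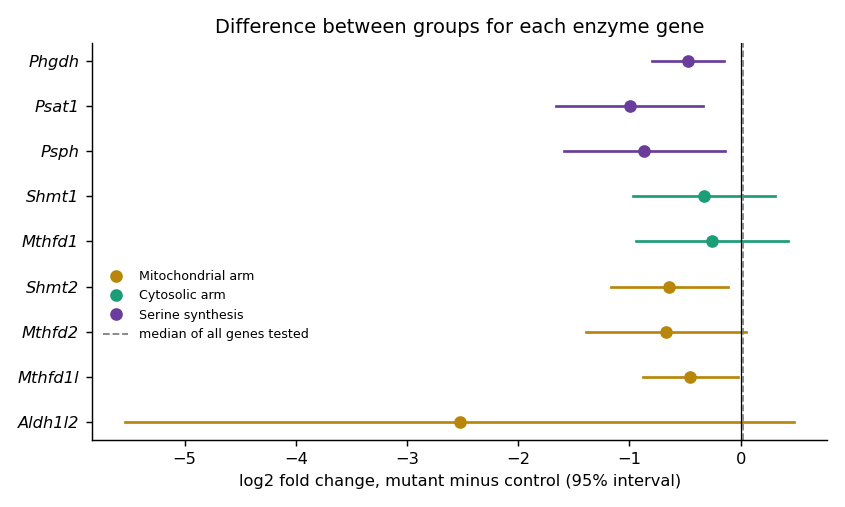
Log2 fold change (mutant minus control) of each enzyme gene with its 95% interval, coloured by arm; the dashed line is the median of all genes tested, 0.024. The intervals of Phgdh, Psat1, Psph, Shmt2 and Mthfd1l lie below 0, before adjustment over all genes, and those of Shmt1, Mthfd1, Mthfd2 and Aldh1l2 reach above it.

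Per kilobase of transcript in control libraries, Psat1 was highest at 149 ± 9.82 CPM per kb (SD, n = 3), followed by Shmt2 at 124 ± 10.9, Phgdh at 120 ± 5.25 and Mthfd2 at 98.1 ± 18.1. The ranges of mean ± SD overlapped for Shmt2 and Phgdh and for Phgdh and Mthfd2, but not for Psat1 and Shmt2. Mthfd1 at 52.3 ± 10.4, Mthfd1l at 43.0 ± 1.91, Psph at 35.9 ± 9.94 and Shmt1 at 32.5 ± 6.08 CPM per kb formed a lower tier in which the ranges of mean ± SD of neighbours overlapped. Aldh1l2 was far lower, at 1.73 ± 1.33 CPM per kb. In mutant libraries Phgdh ranked first at 86.3 ± 10.3 CPM per kb, then Shmt2 at 79.6 ± 23.2 and Psat1 at 74.4 ± 28.6, and these 3 overlapped widely. On this scale the mitochondrial enzyme exceeded its cytosolic partner for Shmt2 over Shmt1 in both groups. The mean of Mthfd2 was above that of Mthfd1 in both groups. In mutant libraries their ranges overlapped, at 61.6 ± 24.3 and 43.7 ± 17.2 CPM per kb. Mthfd1l had a lower mean than Mthfd1 in both groups, at 31.4 ± 7.23 CPM per kb in mutant libraries, with overlapping ranges.

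The cytosolic and mitochondrial arms were compared next. The mean log2 CPM of the mitochondrial arm, set relative to the control mean, was 0.38, -0.62 and 0.24 in control and -2.32, -0.40 and -1.31 in mutant libraries. The cytosolic arm was at -0.19, 0.31 and -0.12 in control and -0.96, -0.29 and 0.19 in mutant libraries. Both arms overlapped between the groups. Serine synthesis, at 0.13, -0.18 and 0.050 in control and -1.33, -0.53 and -0.60 in mutant libraries, did not. Nor did the mitochondrial arm without Aldh1l2, at 0.083, -0.13 and 0.051 in control and -1.20, -0.37 and -0.34 in mutant libraries. Without mutant 1 the mutant minus control difference was -0.55 for serine synthesis, still with no overlap, -0.84 for the mitochondrial arm and -0.035 for the cytosolic arm. With Aldh1l2 also left out, the mitochondrial arm differed by -0.34, again with no overlap. These scores were not tested, because the genes were chosen with results known.

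The mitochondrial minus the cytosolic level was lower in mutant libraries by a mean of 0.99 on the log2 scale (group difference -0.99), with SDs of 0.81 in control and 0.77 in mutant libraries. It was 0.57, -0.93 and 0.36 in control and -1.36, -0.11 and -1.50 in mutant libraries, so control 2 lay below mutant 2. Much of the size came from Aldh1l2: without it the difference was -0.29, with SDs of 0.38 and 0.23, and control 2 at -0.44 lay below mutant 1 at -0.25 and mutant 2 at -0.081. That difference is smaller than the SD of the control libraries. Without mutant 1 the difference between the arms was -0.81, and -0.31 with Aldh1l2 also left out.

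**Figure D3:**
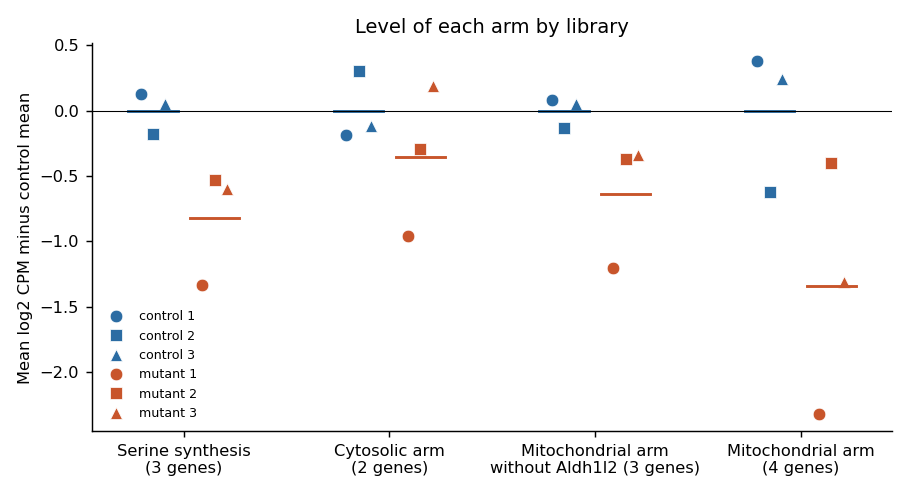
Mean log2 CPM of each set of enzymes minus its control mean, by library, with bars for group means. Serine synthesis and the mitochondrial arm without Aldh1l2 separate the groups, while in the cytosolic arm mutant 3, at 0.19, lies above control 1 and control 3.

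Gene pairs that catalyse matching steps were compared by ratios of counts, which do not depend on library scaling. Shmt2 over Shmt1 was 3.74, 2.27 and 3.47 in control and 2.54, 2.90 and 2.12 in mutant libraries. Mthfd2 over Mthfd1 was 1.56, 0.774 and 1.46 in control and 0.828, 1.15 and 0.761 in mutant libraries. Mthfd1l over Mthfd1 was 1.07, 0.800 and 0.995 in control and 1.02, 0.853 and 0.707 in mutant libraries. All 3 pairs overlapped between the groups, and in each pair control 2 lay below 2 of the 3 mutant libraries. Paralogous transcripts shared short identical stretches. The longest stretch of identical bases between GENCODE M21 transcripts was 19 bases for Shmt1 and Shmt2, 20 for Mthfd1 and Mthfd1l, 20 for Mthfd2 and Mthfd2l and 22 for Aldh1l1 and Aldh1l2.

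**Figure D4:**
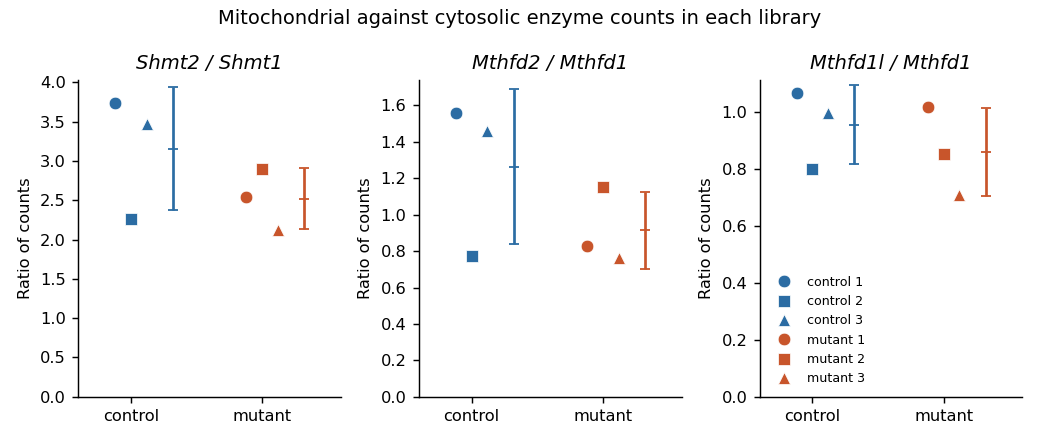
Ratio of the counts of a mitochondrial enzyme to a cytosolic enzyme in each library, with the mean ± SD of each group beside the points. Control 2 lies away from control 1 and control 3 in each panel, and the groups overlap.

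The order of the libraries divided the 9 enzymes in a way that did not follow the compartment. In Phgdh, Shmt1, Mthfd1 and Mthfd1l control 2 was the highest control library, and mutant 3 the highest mutant library. In Psat1, Psph, Shmt2, Mthfd2 and Aldh1l2 control 2 was the lowest control library. Of these 5, mutant 2 was the highest mutant library in all but Shmt2, where mutant 3 was. Mutant 1 was the lowest mutant library in all 9. The sum over the 9 enzymes was close among controls, at 1634, 1545 and 1615 CPM, and lower and wider among mutants, at 688, 1169 and 1251 CPM.

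By their pattern over the 6 libraries, the genes most alike to the mean of the 9 enzymes were Tti1, Kif14, Brip1, Por, Pola1, Slc25a1, Gm5182, Gm6560, Gm9892 and Eif3c, out of 9772 candidates (Pearson r of log2 CPM from 0.993 to 0.999, the best of many and so given as a description). Genes with Gm symbols here, and Pgk1-rs7 below, may share reads with near-identical copies. For single enzymes the most alike gene was Got1 for Phgdh (r = 0.996), Tars for Psat1 (0.997), Ap4e1 for Psph (0.994), Ilf2 for Shmt1 (0.9996), Gm5837 for Mthfd1 (0.999), Pgk1-rs7 for Shmt2 (0.998), Gm14270 for Mthfd2 (0.997), Dus4l for Mthfd1l (0.9995) and Cebpg for Aldh1l2 (0.9999). Atf4 ranked second for Mthfd2 (r = 0.996).

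Around these enzymes, edgeR called no gene of the pathway lists. Of 12 regulators tested, 8 had a lower and 4 a higher mean in mutant libraries, with a median log2 fold change of -0.17 (-0.26 without mutant 1). Atf4 was at 436, 341 and 445 CPM in the controls, against 148, 318 and 307 CPM in the mutants, without overlap, a log2 fold change of -0.66 ± 0.29 (SE), and -0.37 without mutant 1. Eif2ak4, which encodes the kinase GCN2 that senses uncharged tRNA, was at -0.40 ± 0.16 and Cebpg, which encodes a partner of ATF4, at -0.42 ± 0.20 on the log2 scale. All 14 further ATF4 targets had lower means (median log2 fold change -1.14), as did 47.1% of all genes. The smallest differences were those of Sesn2 (-0.027 ± 0.51) and Ddit4 (-0.0034 ± 0.33), whose direction rests on mutant 1. In mutant 2 and mutant 3 Sesn2 was at 85.3 and 43.1 CPM, against a control mean of 48.7 CPM. Ddit4 was at 151 and 90.5 CPM in these libraries, against a control mean of 99.9 CPM. Of the 14, 9 were lower at an unadjusted p under 0.05 in edgeR, as were 3.48% of all genes. Another count, of targets lower without overlap, was 3, where 7.48% of all genes were. These were Aldh18a1 (-0.69 ± 0.15), Slc3a2 (-0.77 ± 0.21) and Slc7a5 (-0.95 ± 0.26). The mean level of all 14 targets relative to the control mean was 0.57, -0.91 and 0.34 in control and -2.16, -0.45 and -1.85 in mutant libraries, with control 2 again below mutant 2. Without mutant 1, 12 of the 14 were lower and 2 higher (median -1.29). In that fit 4 were lower at an unadjusted p under 0.05 (3.95% of all genes) and 4 lower without overlap (12% of all genes).

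Among carriers of serine and folate, 7 of 11 had lower and 4 higher means (median -0.20), and without mutant 1 the split was 9 and 2 (median -0.11). Slc1a4, a carrier of neutral amino acids including serine, was at 44.9, 23.5 and 46.0 CPM in the controls, against 19.2, 20.1 and 12.1 CPM in the mutants. Its log2 fold change was -1.15 ± 0.30 (SE), without overlap. Slc38a2, a sodium-coupled carrier of small neutral amino acids, went the other way, at 366, 316 and 356 CPM in the controls, against 582, 457 and 423 CPM in the mutants. Its groups did not overlap either (log2 fold change 0.49 ± 0.16). Slc6a9, a glycine carrier, had a log2 fold change of -1.46 ± 0.66 with overlap.

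The other folate enzymes were split, with 8 of 13 tested lower and 5 higher (median -0.19), and 7 lower without mutant 1 (median -0.038). Mtrr, which reactivates methionine synthase, was at -0.51 ± 0.20, while Mthfs, which returns 5-formyl folate to the cycle, was at 0.36 ± 0.19 on the log2 scale. Neither gene overlapped between the groups. The methionine cycle and transsulfuration list had 4 of 6 lower (median -0.14), and 5 without mutant 1 (median -0.11). In it Ahcy, the hydrolase of S-adenosylhomocysteine, was at 123, 172 and 119 CPM in the controls, against 77.6, 78.4 and 83.2 CPM in the mutants, without overlap (log2 fold change -0.79 ± 0.17, and -0.75 without mutant 1). Cth, cystathionine gamma-lyase, was at -1.41 ± 0.84 and Cbs, the enzyme before it, at -0.22 ± 0.34, both with overlap.

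Glycine cleavage genes were 2 lower and 2 higher of 4, with and without mutant 1 (median -0.086, and -0.027 without it), with Dld at -0.34 ± 0.16, Gcsh at -0.29 ± 0.21 and Amt at 0.19 ± 0.45 on the log2 scale. Of the other users of serine, 6 of 9 were lower (median -0.066), and 5 without mutant 1 (median -0.028): Sars, the cytosolic seryl-tRNA synthetase, was at -0.63 ± 0.19, Ptdss2, a phosphatidylserine synthase, at -0.30 ± 0.16 and Serinc3 at 0.27 ± 0.18. All 7 purine synthesis genes, whose pathway consumes formyl folate, had lower means (median -0.31), with 0 free of overlap and 0 at an unadjusted p under 0.05, but without mutant 1 only 4 of the 7 were lower (median -0.073). Gart was at -0.48 ± 0.27, Adsl at -0.36 ± 0.20 and Paics at -0.33 ± 0.17.

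**Figure D5:**
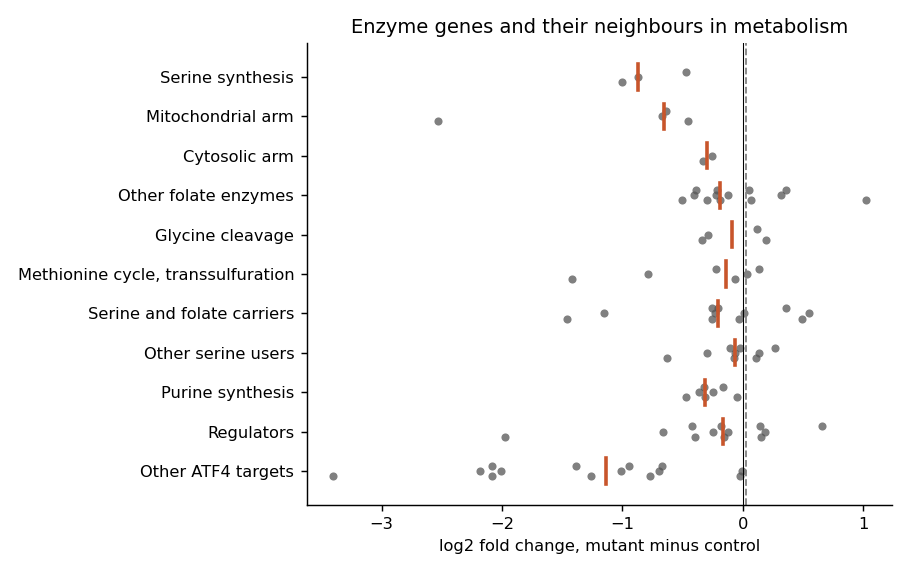
Log2 fold change (mutant minus control) of each tested gene by list, with a bar at each list's median; the dashed line is the median of all genes tested. Serine synthesis, the mitochondrial arm and the other ATF4 targets have medians of -0.87, -0.66 and -1.14, and the remaining lists lie between -0.31 and -0.066.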

How the data were processed

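RNA was sequenced from 3 control and 3 mutant cultures of CD4+ T cells from mouse spleen. The authors deposited 1 table of estimated counts per gene, not normalized, with 26469 gene rows. Of the values above 0, 54.9% are exactly whole numbers and the rest are fractional. Per the submitters' processing notes, STAR 2.7.8a, Partek and the builds GRCm39 and mm39 were used. The annotation and strand setting were not given in the sources used here.

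Estimated counts were rounded. The filterByExpr function at a minimum count of 10 kept 18323 genes, holding 99.9% of the counts. TMM-scaled libraries were compared, mutant minus control, by edgeR's quasi-likelihood test (edgeR 4.0.16, R 4.3.3, robust, two-sided, Benjamini-Hochberg adjustment over all genes tested, threshold 0.05). Standard errors were derived from the log2 fold change and its F statistic, and 95% intervals use the total degrees of freedom. CPM refers to TMM-scaled library sizes, and log2 CPM to a prior count of 2. Levels between genes were set side by side per kilobase of the longest protein-coding transcript in GENCODE M21, which was made on another build. Promoter windows came from RefSeq (GRCm38.p6). The procedure was tested on simulated data.

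The enzymes, gene lists, arms and tests were chosen with earlier results of these data known. Named genes were the 9 enzymes, up to 3 genes of smallest p in each pathway list, and the genes most alike in pattern. Some genes that this rule names are not reported here. The CCAAT and GC box motifs were added after the other motifs had been searched. Alternatives were DESeq2 1.42.0, other scalings and filters, limma-voom (limma 3.58.1), scaling without mitochondrial and small structural RNA genes, a stricter threshold, a replicate block and leaving out each library.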

Additional observations from a re-analysis of the deposited data

How the results depend on the processing

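No alternative ended a call, since edgeR made none. The number of genes called was 0 in edgeR under every scaling, filter, removal, threshold and left-out library tried, 0 in limma-voom, and 99 in DESeq2, none of them one of the 9 enzymes; edgeR gave 1396 genes an unadjusted p under 0.05 and limma-voom 1297. The fold changes of the 9 enzymes kept their direction in all 14 alternatives each, except Mthfd1 without mutant 1 (0.018, in a range with single libraries left out of -0.57 to 0.018). The number of enzymes lower in every mutant than every control library ran from 4 to 7 when single libraries were left out, while the share of all genes doing so ran from 8.28% to 16.3% (7.48% with all libraries); this alternative, and the pathway lists and arms without mutant 1, were chosen after seeing the data. The difference between the arms ran from -1.45 to -0.71 with single libraries left out and the serine synthesis level from -0.94 to -0.55. Samples of equal replicate number showed no sign of pairing. Their deviations correlated at -0.048, -0.067 and -0.028, and 0 of 6 samples correlated best with its own number. With 3 libraries per group, this check could miss a pairing. A replicate block in edgeR left 0 genes called and 991 at an unadjusted p under 0.05, against 1396 without it. The values of Aldh1l2 rested on few counts in 2 libraries, with 3 in mutant 1 and 12 in mutant 3.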
